A study of Mus musculus with 24 samples.

Results

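The genes described here lie on the distal part of mouse chromosome 9 and stood higher, as a block, in MIN6 cells expressing an inhibitor of miR-146a-5p (ZIP) than in cells expressing a scrambled sequence (Scr). They are 391 of 17696 listed genes, taken by position from Fam214a, whose start is base 74952880 of chromosome 9 in the mm10 build, to the end of the chromosome. Symbol rules left out 27 of the 418 genes listed there, so that no subunits of respiratory complexes, ribosomal or proteasomal proteins and no members of a few other families are among the 391. The region was chosen by measured values, the fold changes of untreated ZIP libraries over untreated Scr libraries, so those fold changes are given as a description with no test. The last member starts at base 124474346, so the starts cover 49.6 Mb. Levels are read counts scaled to the library total (CPM). Of the members, 199 had a mean of at least 10 CPM over all libraries, 76 had between 1 and 10 CPM and 116 were under 1 CPM, and 11 had no more than 3 reads in any library.

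Bulk RNA-seq was made from 24 libraries in 6 groups of 4. MIN6 is a mouse insulinoma line that keeps many features of pancreatic β cells. All groups were stable lentiviral lines selected with puromycin. Scr and ZIP carried the miRZip vector with copGFP, and OE carried the shMIMIC vector with Turbo RFP and overexpressed miR-146a-5p. Scr, ZIP and OE cells were untreated. Scr+Cy, ZIP+Cy and OE+Cy cells had been given IL-1β at 5 ng/ml, IFNγ at 100.0 ng/ml and TNFα at 10 ng/ml for 24 h. Single clones had been picked and expanded for each line, so line and clone, and in OE the vector backbone, cannot be told apart. Nothing in the labels says that the 4 libraries of a group came from separate cultures, and p values then measure only the spread between these libraries, which may be technical.

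Between 26657792 and 37168232 reads were assigned to genes per library. Of 12 β cell markers, 11 reached 1 CPM in every library, and Ucn3, a late marker of mature β cells, did not. Markers of other islet endocrine cells, mainly Gcg, summed to a mean of 288.5 CPM in Scr, 184.6 CPM in ZIP and 51.7 CPM in OE, and their part in the differences between lines was not tested. The listed markers of immune, endothelial and fibroblast cells summed to at most 17.6 CPM for each type in any library. The only listed ductal marker, Krt19, had no read in any Scr, ZIP, Scr+Cy or ZIP+Cy library and had means of 15.8 CPM in OE and 19.7 CPM in OE+Cy, and its part in the OE values was not tested. In bulk RNA, fewer expressing cells and less RNA per cell cannot be told apart.

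Neighbouring genes on a chromosome are usually transcribed from promoters of their own, and a common shift over many of them leaves room for each gene's own regulation. In β cells, IL-1β and TNFα act mainly through NF-κB and IFNγ through interferon-activated transcription factors. The κB site, the gamma-activated site (GAS) and the interferon-stimulated response element (ISRE) are the promoter motifs of these pathways. Distal chromosome 9 carries genes of interferon-induced protein modification, chemokine receptors, phospholipid scramblases, secretory granule and endoplasmic reticulum proteins, and metabolic enzymes. The question put to these genes was which of them departed from the common shift, and how each line answered the cytokines.

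Promoter sequence is shown for a few cytokine-responsive members, chosen after their values were seen, and for a pair of neighbours that were raised in OE. Others with large rises are not shown. Among them, Trex1 had a κB motif, and Parp3, Slco2a1 and Ltf had no ISRE, GAS or κB motif. Each run holds 100 bases of GRCm38.p6 from RefSeq, written 5′ to 3′ on the strand of the gene, with the searched motifs in capitals. Upstream of Uba7 (chr9:107975467-107975566, plus strand), no searched motif was present. The run of Ccrl2 (chr9:111057519-111057618, minus strand) holds a κB motif, that of Gm26797 (chr9:122310929-122311028, minus strand) an ISRE and that of Plscr1 (chr9:92250094-92250193, plus strand) a GAS and, at its end, a GC box. The run between the start sites of Tmie and Als2cl, which are transcribed away from each other (chr9:110880074-110880173, plus strand), is 71% G and C and holds a GC box.
Uba7: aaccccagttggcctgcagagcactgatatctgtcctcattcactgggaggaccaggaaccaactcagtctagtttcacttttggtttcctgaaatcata
Ccrl2: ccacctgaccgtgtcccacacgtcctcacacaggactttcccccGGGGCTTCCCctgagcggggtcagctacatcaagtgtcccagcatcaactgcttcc
Gm26797: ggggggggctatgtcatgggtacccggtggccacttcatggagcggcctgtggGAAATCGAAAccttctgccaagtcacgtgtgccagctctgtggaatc
Plscr1: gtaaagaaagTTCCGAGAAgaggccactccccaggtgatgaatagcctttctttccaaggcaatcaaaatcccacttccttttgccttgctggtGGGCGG
Tmie and Als2cl: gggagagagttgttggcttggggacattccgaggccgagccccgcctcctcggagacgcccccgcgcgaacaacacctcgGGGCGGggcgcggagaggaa

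These motifs were searched on both strands from 250 bases before to 50 bases after each start, and 345 members had a sequence. The ISRE was written TTTCNNTTTC and was found for 2.61% of the members and for 3.99% of all 27025 genes with a promoter sequence. The GAS, written TTCNNNGAA, was found for 9.86% of the members and 9.55% of all genes. The κB motif was found for 10.1% and 6.55%. The GC box, GGGCGG, was found for 63.2% of the members and 38.2% of all genes, and the listed genes are not a random draw from all genes. A match is a description of the letters and not of a bound site.

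In untreated cells, distal chromosome 9 genes stood about 1.71-fold higher in ZIP than in Scr. The median log2 fold change of the 199 members with at least 10 CPM was 0.77, with an interquartile range between 0.61 and 0.89, and 197 of the 199 were above 0. The 9526 genes of at least 10 CPM outside the region had a median of −0.02. A call needed a 1.5-fold difference or more and p under 0.05 before adjustment. By it, 223 members were higher in ZIP and 12 lower, where 7.97% and 6.91% of all genes were called. Because this contrast chose the region, nothing is read from those counts.

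The start of the region was set from untreated ZIP over Scr, so the values of that contrast on both sides of it are a description. The last genes of at least 10 CPM before the region were Pigb, Rab27a and Rsl24d1, and their log2 fold changes of ZIP over Scr were 0.27, 0.11 and −0.04. The first members were Fam214a, Arpp19 and Myo5a, and theirs were 0.90, 0.73 and 0.76. Arpp19, an inhibitor of the phosphatase PP2A in mitosis, had 58.0, 56.4, 58.7 and 52.0 CPM in Scr and 93.4, 90.8, 96.4 and 93.5 CPM in ZIP. Myo5a, a motor that carries secretory granules along actin, had 206 to 253 CPM in Scr and 381 to 395 CPM in ZIP. Neither gene's Scr and ZIP libraries overlapped. The 5 windows of 5 Mb before base 75 Mb had medians between −0.06 and 0.02, and the 10 windows from there to the end had medians between 0.53 and 0.88. Farther before the region, the 7 genes between 5 and 10 Mb had a median of −0.65, and of −0.31 with cytokines. In ZIP+Cy over Scr+Cy, which did not set the start, the log2 fold changes of Pigb, Rab27a and Rsl24d1 were 0.22, 0.01 and −0.04 (adjusted p = 0.0138, 0.957 and 0.659), and those of Fam214a, Arpp19 and Myo5a were 1.02, 0.90 and 0.68 (adjusted p = 1.38e-07, 8.6e-12 and 6e-08). The last window, which ends the chromosome, had a median of 0.83 untreated and 0.82 with cytokines.

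**Figure D1:**
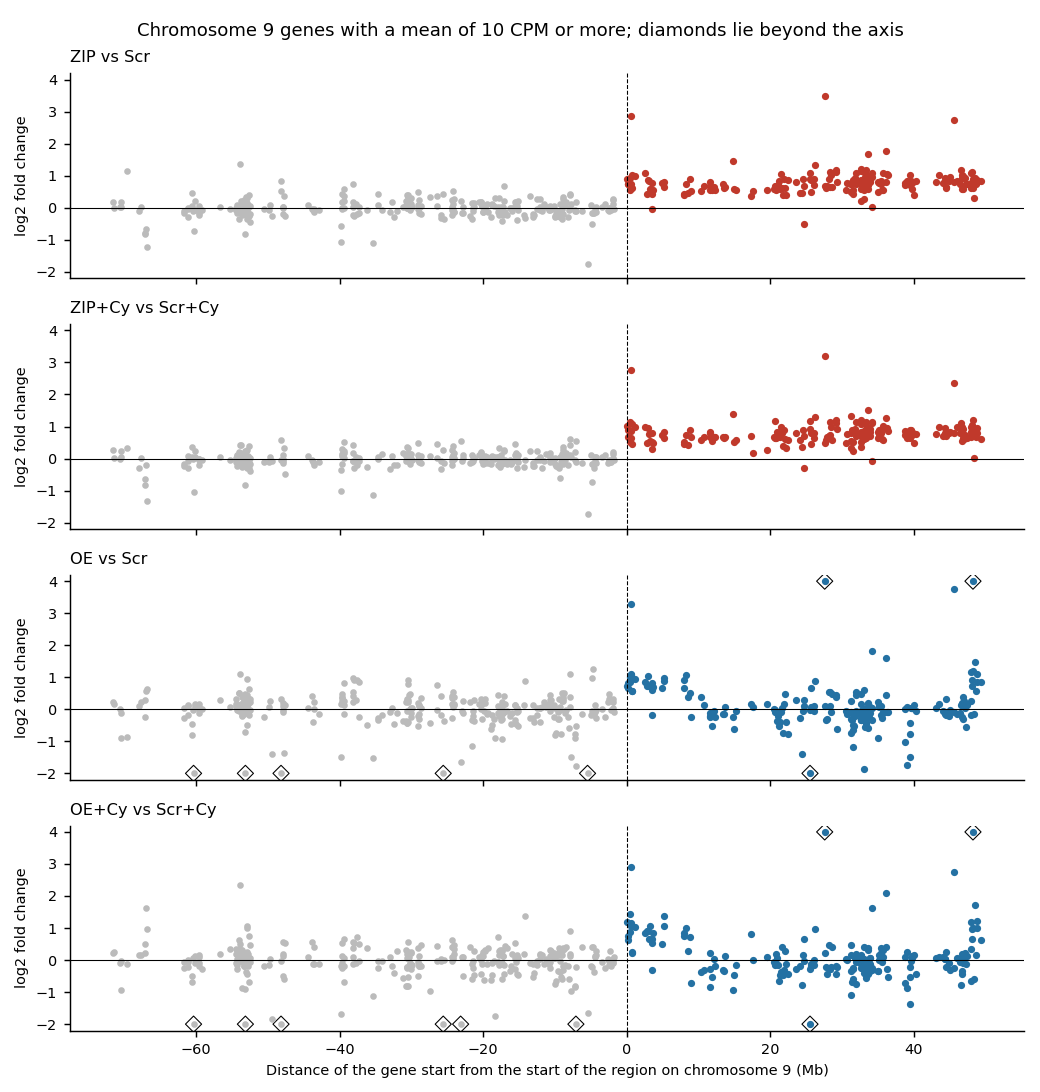
Log2 fold changes of genes with a mean of at least 10 CPM along chromosome 9, by distance in Mb from the start of the region, with the 199 members in colour and genes before the region in grey. Panels show ZIP over Scr and OE over Scr, untreated and with cytokines, and diamonds mark genes beyond the axis limits. In both ZIP panels the members sit around 0.77 and 0.79 and most genes before them near 0. In both OE panels only the first and the last stretch of members sit as high.

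The treated libraries, which had no part in choosing the region but came from the same clones, gave nearly the same picture. The median log2 fold change of ZIP+Cy over Scr+Cy was 0.79, or 1.73-fold, with an interquartile range between 0.64 and 0.90. The edgeR quasi-likelihood test called 233 members higher and 17 lower, where 7.1% and 8.67% of all genes were called. Taken library by library, the median difference of the members from the Scr mean was 0.77 to 0.79 in the ZIP libraries and 0.71 to 0.78 in the ZIP+Cy libraries. It was −0.06 to 0.07 in Scr and −0.09 to 0.04 in Scr+Cy. The ZIP and Scr values are those of the libraries that chose the region, and their separation is a description. The ZIP+Cy and Scr+Cy libraries, which did not choose it, did not overlap in this measure. Azi2, an adaptor of the kinase TBK1, is typical of the members. It had a mean of 46.7 ± 2.7 CPM (SD, n = 4) in Scr+Cy and 79.3 ± 2.6 CPM in ZIP+Cy, a log2 fold change of 0.76 ± 0.06 (SE, adjusted p = 1.78e-10). Azi2 overlaps the counted genes Cmc1 and Zcwpw2, so its count is uncertain.

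In OE cells, which shared the Scr control libraries with the contrast that chose the region, the members had no common shift. The median log2 fold change of OE over Scr was 0.01, with 102 of 199 members above 0, and that of OE+Cy over Scr+Cy was 0.00. The test called 67 members higher and 53 lower in OE, where 11.3% and 14.4% of all genes were called. In OE+Cy it called 71 higher and 48 lower, where 13.7% and 14.8% of all genes were called.

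The OE values were nevertheless uneven along the region, in a pattern seen after the values were known and therefore not tested. From the start of the region to Elovl4, the 28 members of at least 10 CPM had a median log2 fold change of 0.77 in OE over Scr and 0.84 in OE+Cy over Scr+Cy, beside 0.75 in ZIP over Scr. Of these 28 members, 27 were above 0 and 24 were called higher in OE, where 11.3% of all genes were called higher. The stretch was bordered by the OE values, so nothing is read from these counts. Myo5a had 377 to 426 CPM in OE, as high as in ZIP. Eef1a1, which encodes the main translation elongation factor, had a mean of 3012 CPM in Scr, 4087 CPM in ZIP and 4609 CPM in OE. The exception was Cgas, the sensor of cytosolic DNA, at −0.17 in OE and −0.04 in ZIP.

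From Ttk, the next gene of that level, to the start of Zkscan7, 159 members had a median of −0.08 in OE over Scr and 0.77 in ZIP over Scr. From Zkscan7 to the end of the chromosome, 12 members again had a median of 0.89 in OE and of 0.98 in OE+Cy over Scr+Cy, beside 0.83 in ZIP. Of those 12 members, 10 were above 0 in OE, and the exceptions were Kif15 at −0.17 and Lars2 at −0.15. By these medians, both ZIP and OE stood above Scr in the first and the last stretch of the region, and ZIP but not OE did over the long middle stretch. In the individual OE libraries, the median difference from the Scr mean was 0.76 to 0.83 in the first stretch, −0.09 to −0.04 in the middle and 0.89 to 1.04 in the last, and in the OE+Cy libraries 0.69 to 0.78, −0.12 to −0.06 and 0.75 to 0.90. The borders of the stretches were placed after the OE values were known, so the same order in all 8 libraries is a description.

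A gene was taken to depart from the common shift when its log2 fold change lay at least 1 away from the median on the same side in both ZIP over Scr and ZIP+Cy over Scr+Cy. This selection used both contrasts, so the departing members carry no test in either of them. Of 245 members with a mean of at least 5 CPM in Scr, ZIP, Scr+Cy or ZIP+Cy, 218 lay within 0.5 of the median in both contrasts and 7 departed. Tmod2, Entpd3, Slc9a9 and Trf were higher than the common shift, and 1700048O20Rik, Plscr4 and Dzip1l were lower.

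**Figure D2:**
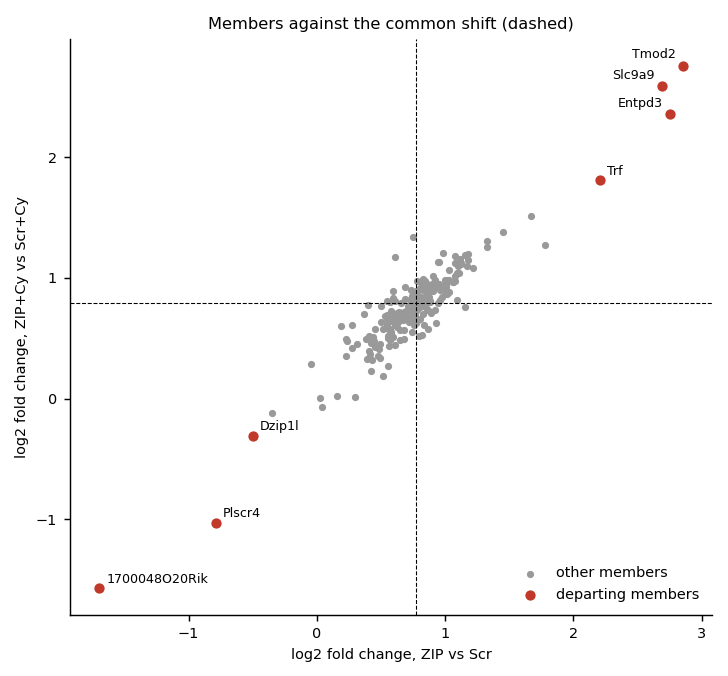
Log2 fold change of ZIP+Cy over Scr+Cy against that of ZIP over Scr for 245 members, with dashed lines at the common shift of 0.77 and 0.79. Most points cluster where the lines cross, and the 7 departing members are named, 4 above and 3 below the cluster on both axes.

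Tmod2, neuronal tropomodulin, caps the slow-growing ends of actin filaments. It had 72.9, 75, 58.1 and 38.7 CPM in Scr, 488, 449, 397 and 439 CPM in ZIP, and 753, 587, 594 and 478 CPM in OE. With cytokines it had 31.7 to 69.3 CPM in Scr+Cy, 302 to 391 CPM in ZIP+Cy and 309 to 475 CPM in OE+Cy. The lowest ZIP library stood above the highest Scr library by a wide margin in both conditions, and the OE libraries were as high as ZIP or higher. The log2 fold changes were 2.86 in ZIP over Scr, 2.76 in ZIP+Cy over Scr+Cy and 3.30 in OE over Scr. Tmod2 lies in the first stretch, where OE shared the shift.

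Entpd3 is an ectonucleotidase of the β cell surface that breaks down extracellular ATP. It had 8.93, 7.96, 7.34 and 5.54 CPM in Scr, 53.7, 54.4, 44.7 and 48.3 CPM in ZIP, and 123, 101, 95.0 and 87.3 CPM in OE. The order Scr, ZIP, OE held with no overlap between the untreated groups. With cytokines, the 3 lines had 8.20 to 11.7, 40.2 to 58.4 and 51.5 to 95.3 CPM, and ZIP+Cy and OE+Cy overlapped. The log2 fold changes were 2.75 in ZIP over Scr, 2.36 in ZIP+Cy over Scr+Cy, 3.76 in OE over Scr and 2.75 in OE+Cy over Scr+Cy.

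Slc9a9, an endosomal sodium/proton exchanger, was a low-level member with 0.517 to 1.62 CPM in Scr, 4.41 to 6.38 CPM in ZIP and 3.08 to 4.59 CPM in OE. Its log2 fold changes were 2.69 in ZIP and 2.59 in ZIP+Cy, and 2.16 and 2.30 in OE and OE+Cy. As with Tmod2 and Entpd3, ZIP and OE moved to the same side of Scr. Trf, the gene of the iron carrier transferrin, was the departing member where they moved apart. It had 3.91, 3.33, 2.44 and 3.19 CPM in Scr and 15.3, 14.8, 15.5 and 14 CPM in ZIP, while 3 of the 4 OE libraries had no read and the other had 0.0828 CPM. Measured against 3 reads per library, Trf was at least 36.4-fold lower in OE than in Scr and at least 35.0-fold lower in OE+Cy than in Scr+Cy. Trf was also the departing member nearest to the limit, 1.02 above the common shift in ZIP+Cy over Scr+Cy. It fell inside the limit when Scr+Cy replicate 2 or 4 or ZIP+Cy replicate 3 was left out, which left 6 of the 7.

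The 3 members below the common shift had lower means in ZIP than in Scr. 1700048O20Rik, a gene named only by its clone identifier, had 4.88 to 5.28 CPM in Scr, 1.42 to 1.68 CPM in ZIP and 4.33 to 4.85 CPM in OE. With cytokines it had 4.31 to 5.82 CPM in Scr+Cy and 1.64 to 1.84 CPM in ZIP+Cy. It was thus the most clearly lower member, with log2 fold changes of −1.70 and −1.57 and departures of −2.47 and −2.36. Plscr4, a phospholipid scramblase, had 3.66 to 4.68 CPM in Scr and 4.02, 2.22, 1.70 and 1.95 CPM in ZIP, so one ZIP library reached the Scr range. Dzip1l, a protein of the ciliary base, had 7.42 to 9.69 CPM in Scr and 5.89 to 6.99 CPM in ZIP. Its log2 fold change of −0.31 in ZIP+Cy over Scr+Cy put it 1.10 below the common shift, the nearest to the limit on that side.

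Just outside the limit, P4htm, a membrane-bound prolyl hydroxylase, had log2 fold changes of 1.67 and 1.51, and Tbc1d2b, a Rab GTPase activator, had −0.35 and −0.12. With the limit at 0.75, Tbc1d2b joined the 7. With a minimum of 10 CPM, 4 genes departed, since 1700048O20Rik, Plscr4 and Slc9a9 did not reach that level. Among members chosen after their values were seen, Plxnb1, a semaphorin receptor, had 14.3 ± 0.85 CPM in Scr (SD, n = 4), 14.6 ± 0.65 CPM in ZIP and 50.4 ± 3.3 CPM in OE. Its log2 fold change in OE+Cy over Scr+Cy was 1.64 ± 0.08 (SE, adjusted p = 1.05e-14). Zfp660, a zinc finger gene, had 3 reads or fewer in every Scr library and 2.42 ± 0.27 CPM in ZIP, at least 27.4-fold higher.

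No member of at least 10 CPM was among the 17 called lower in ZIP+Cy than in Scr+Cy. Besides 1700048O20Rik and Plscr4, the calls belonged to genes of a few CPM or less, and the ones named next were chosen after their values were seen. Cspg5, a neural chondroitin sulfate proteoglycan, had means of 1.94 ± 0.16 CPM in Scr+Cy and 0.694 ± 0.34 CPM in ZIP+Cy (SD, n = 4), a log2 fold change of −1.49 ± 0.28 (SE). Gask1a, a Golgi protein, had 0.934 ± 0.10 and 0.233 ± 0.060 CPM, a log2 fold change of −1.98 ± 0.33 (SE). Htr1b, a serotonin receptor, had 0.172 to 0.826 CPM in Scr+Cy and no more than 3 reads in any ZIP+Cy library, at least 4.78-fold less. For each of these 3 genes, the ZIP+Cy and Scr+Cy libraries did not overlap. In ZIP over Scr, the log2 fold changes of Cspg5 and Gask1a had the same sign, −1.11 and −1.71.

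Of the 24 members of at least 10 CPM on the list of secretory and neuroendocrine genes, 12 stood above the common shift and 11 below it in ZIP+Cy over Scr+Cy, and their median of 0.79 was that of all members. Scg3 and Srprb lay above it, and Gnai2 and Slc17a5 below it. Their log2 differences from the common shift were 0.28, 0.37, −0.44 and −0.31. Scg3, which sorts hormone cargo into granules, had 1326 to 1472 CPM in Scr and 2434 to 3202 CPM in ZIP, and its log2 fold change was 1.07 ± 0.10 in ZIP+Cy over Scr+Cy (SE, adjusted p = 1.64e-08). Srprb, a gene of protein entry into the endoplasmic reticulum, had a log2 fold change of 1.15 in the same contrast (adjusted p = 3.7e-09). These p values test against no change and not against the common shift. Vipr1, the VIP receptor that raises cAMP, had 24.8 to 32.9 CPM in Scr+Cy and 49.9 to 64.8 CPM in ZIP+Cy, a log2 fold change of 0.88 ± 0.11 (SE, adjusted p = 6.61e-07), which differed from the common shift by less than its SE. For Scg3, Srprb and Vipr1, no ZIP+Cy library reached down to a Scr+Cy library.

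**Figure D3:**
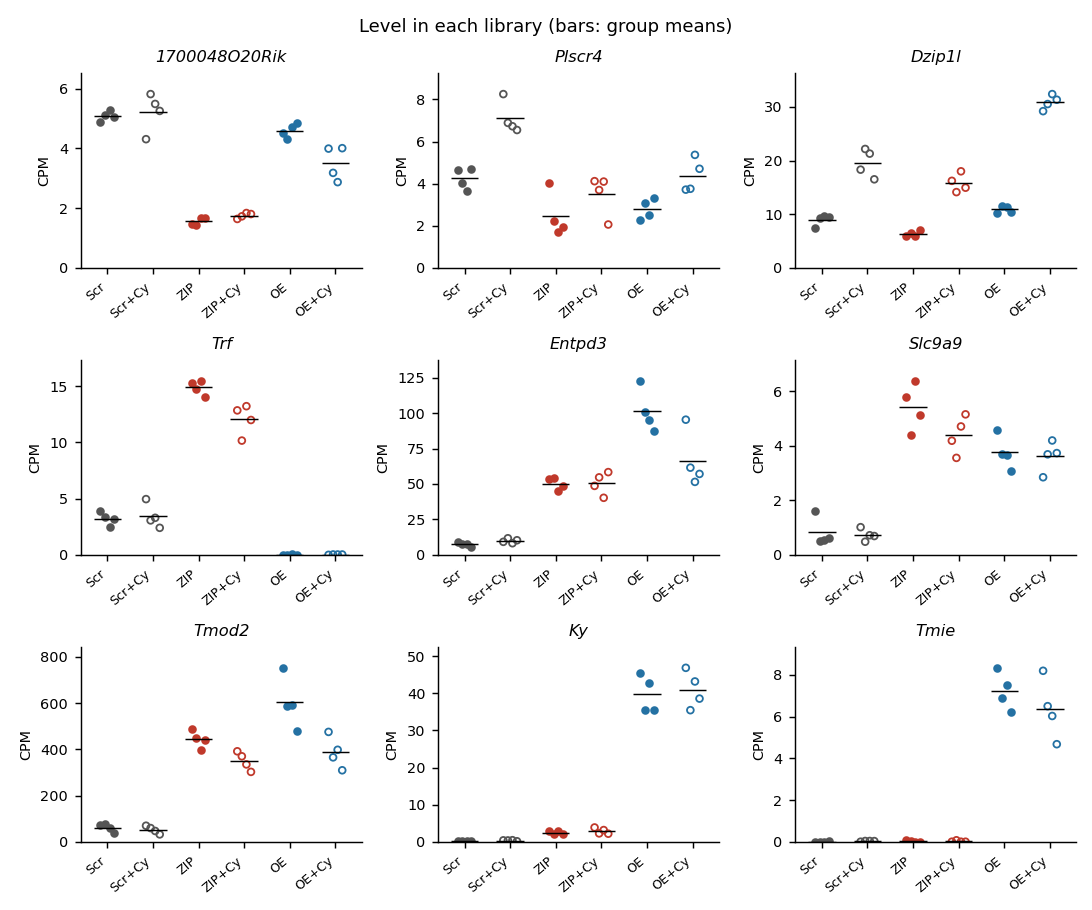
CPM of each library for the 7 departing members and for Ky and Tmie, on linear axes from 0, by line, with filled points for untreated and open points for cytokine-treated libraries and bars at the means of 4. The ZIP libraries stand above the Scr libraries for Trf, Entpd3, Slc9a9, Tmod2 and Ky and below them for 1700048O20Rik, and Tmie is near 0 outside the OE line.

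The widest differences within the region belonged to OE and not to ZIP. Ky, kyphoscoliosis peptidase, a muscle protein, had 0.156 to 0.270 CPM in Scr, 1.98 to 2.91 CPM in ZIP and 35.5 to 45.5 CPM in OE. Its libraries did not overlap between any of the 3 lines. In OE+Cy over Scr+Cy, its log2 fold change was 7.04 ± 0.22 (SE, adjusted p = 6.65e-18). Tmie, which anchors the mechanotransduction channel of hair cells, and Als2cl, a Rab5 regulator, are divergent neighbours whose start sites enclose the GC-rich run shown above. Tmie had 0 CPM in 3 Scr libraries and 0.0310 CPM in the other, and 8.34, 6.91, 7.50 and 6.22 CPM in OE, at least 81.9-fold higher. Als2cl had 0 to 0.0619 CPM in Scr and 5.71, 4.71, 5.38 and 3.60 CPM in OE, at least 54.8-fold higher. Against Scr+Cy, Tmie was at least 65.4-fold higher and Als2cl at least 105-fold higher in OE+Cy. In the ZIP and ZIP+Cy libraries, Tmie had at most 0.0732 CPM, within 3 reads in each, and Als2cl had 0.0310 to 0.307 CPM, in part above that limit and far below OE.

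Cdcp1, a transmembrane substrate of Src kinases, had 0.217 to 0.313 CPM in Scr and 9.63 to 18.6 CPM in OE. Its log2 fold change was 6.47 ± 0.24 in OE+Cy over Scr+Cy (SE, adjusted p = 1.51e-16). Fam83b, an adaptor of growth factor signalling, had a mean of 0.183 ± 0.072 CPM in Scr+Cy and 3.89 ± 0.36 CPM in OE+Cy, a log2 fold change of 4.37 (adjusted p = 2.32e-12). On the lower side, Higd1a, a hypoxia-induced protein of the inner mitochondrial membrane, had no read in any of the 8 OE and OE+Cy libraries. In Scr it had 5.56, 2.18, 2.78 and 3.87 CPM, at least 40.7-fold more than in OE. In ZIP+Cy it was also lower than in Scr+Cy, with a log2 fold change of −1.73 ± 0.40 (SE, adjusted p = 0.0029). Cpne4, a calcium-binding copine, had 8.58 to 10.1 CPM in Scr and 0.151 to 0.354 CPM in OE, and fell by 4.89 on the log2 scale in OE+Cy over Scr+Cy (adjusted p = 2.04e-13).

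Il20rb, a receptor subunit of the IL-20 cytokine family, separated the lines in both directions. It had 14.4 to 16.0 CPM in Scr, 31.5 to 33.0 CPM in ZIP and 0.925 to 1.24 CPM in OE. With cytokines, its log2 fold change was 1.18 ± 0.13 in ZIP+Cy over Scr+Cy (SE, adjusted p = 9.28e-08) and −3.66 ± 0.16 in OE+Cy over Scr+Cy (SE, adjusted p = 4.06e-15). The cytokines raised it in all 3 lines, with log2 fold changes of 0.77, 0.87 and 0.90, and neither interaction passed the test (adjusted p = 0.988 for ZIP and 0.771 for OE). Tpbg, a trophoblast glycoprotein that dampens Wnt signalling, had 0.121 to 0.393 CPM in OE and 1.52 to 3.83 CPM in Scr, and was 1.71 lower on the log2 scale in OE+Cy (adjusted p = 0.000292).

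The cytokines did not move the region as a whole. Its median log2 fold change stood at −0.03 in Scr+Cy over Scr, −0.02 in ZIP+Cy over ZIP and −0.02 in OE+Cy over OE. In Scr, 27 members were called higher and 12 lower, where 7.88% and 2.67% of all genes were called. In ZIP, 31 were called higher and 21 lower, where 7.28% and 5.21% of all genes were called. In OE, 40 were called higher and 29 lower, where 13% and 8.02% of all genes were called. These shares of members were near the background. Higher calls in all 3 lines belonged to 14 members (3.58%, beside 4.68% of all genes), and 54 members (13.8%, beside 16.4%) were called higher in at least 1 line. Lower calls in all 3 lines belonged to 4 members, Cacna2d2, Clstn2, Iqcf5 and Stac (1.02%, beside 0.949% of all genes), and 47 members (12%, as of all genes) were called lower in at least 1 line. The Scr and ZIP responses use the libraries on which the region was chosen, while the OE response does not.

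Uba7, the enzyme that activates the ubiquitin-like protein ISG15, had the largest rise in ZIP and in OE among the members of at least 10 CPM. It went from 1.92, 1.90, 2.09 and 1.08 CPM in Scr to 58.8, 66.4, 61.4 and 61.2 CPM in Scr+Cy. In ZIP it went from 1.28 to 3.93 CPM to 77.6 to 107 CPM, and in OE from 0.242 to 0.607 CPM to 46.7 to 66.6 CPM. Treated and untreated libraries were far apart in every line, and the OE libraries started lowest and ended at the level of Scr+Cy. The log2 fold changes were 5.14 ± 0.22 in Scr (SE, adjusted p = 4.65e-15), 5.48 in ZIP (adjusted p = 1.41e-15) and 6.81 in OE (adjusted p = 3.82e-16). The response was larger in OE than in Scr by 1.67 on the log2 scale (interaction, adjusted p = 0.00435). For ZIP the difference was 0.34 and did not pass the test (adjusted p = 0.922).

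Ccrl2, a receptor that presents the chemoattractant chemerin, rose from 0.0862 to 0.281 CPM in Scr to 5.97 to 9.30 CPM in Scr+Cy. It reached 12.4 to 21.5 CPM in ZIP+Cy, and the OE+Cy libraries had 29.2 to 37.8 CPM, with no overlap between treated groups. Its log2 fold changes within a line were 5.34, 4.84 and 5.85 (adjusted p = 1.48e-13, 1.51e-14 and 2.03e-16), and neither interaction passed the test (adjusted p = 0.909 for ZIP and 0.521 for OE). Untreated, the means were 0.186, 0.633 and 0.566 CPM in Scr, ZIP and OE. Parp3, a mono-ADP-ribosyltransferase of DNA repair, rose from 7.25 to 8.55 CPM to 34.0 to 44.4 CPM in Scr. In ZIP it rose from 12.3 to 18.0 CPM to 56.9 to 85.2 CPM, and in OE from 4.81 to 6.34 CPM to 29.6 to 36.8 CPM. Its log2 fold changes were 2.31, 2.28 and 2.56, beside levels that differed by line.

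Slco2a1, a prostaglandin transporter, had at most 3 reads in every Scr library and 0.999 to 1.68 CPM in Scr+Cy, at least 15.2-fold more. The ZIP+Cy libraries had 1.92 to 4.64 CPM, and the OE+Cy libraries 3.86 to 7.61 CPM. Its log2 fold change was 3.63 ± 0.34 within ZIP (SE, adjusted p = 1.23e-08). The non-coding Gm26797, whose upstream run holds the ISRE, had a mean of only 1.06 CPM over all 24 libraries. It rose by 2.71, 3.96 and 4.56 on the log2 scale in Scr, ZIP and OE. Its rise was larger in OE than in Scr by 1.85 (interaction, adjusted p = 0.0136). Shisa5, a p53-induced protein of the endoplasmic reticulum, was chosen after its values were seen. Its means were 53.2, 103 and 42.4 CPM in Scr, ZIP and OE and rose to 156 ± 14, 343 ± 45 and 126 ± 4.3 CPM with cytokines (SD, n = 4). Its log2 fold changes were 1.55, 1.73 and 1.57, and the interactions were 0.18 ± 0.14 for ZIP and 0.02 ± 0.14 for OE (SE).

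**Figure D4:**
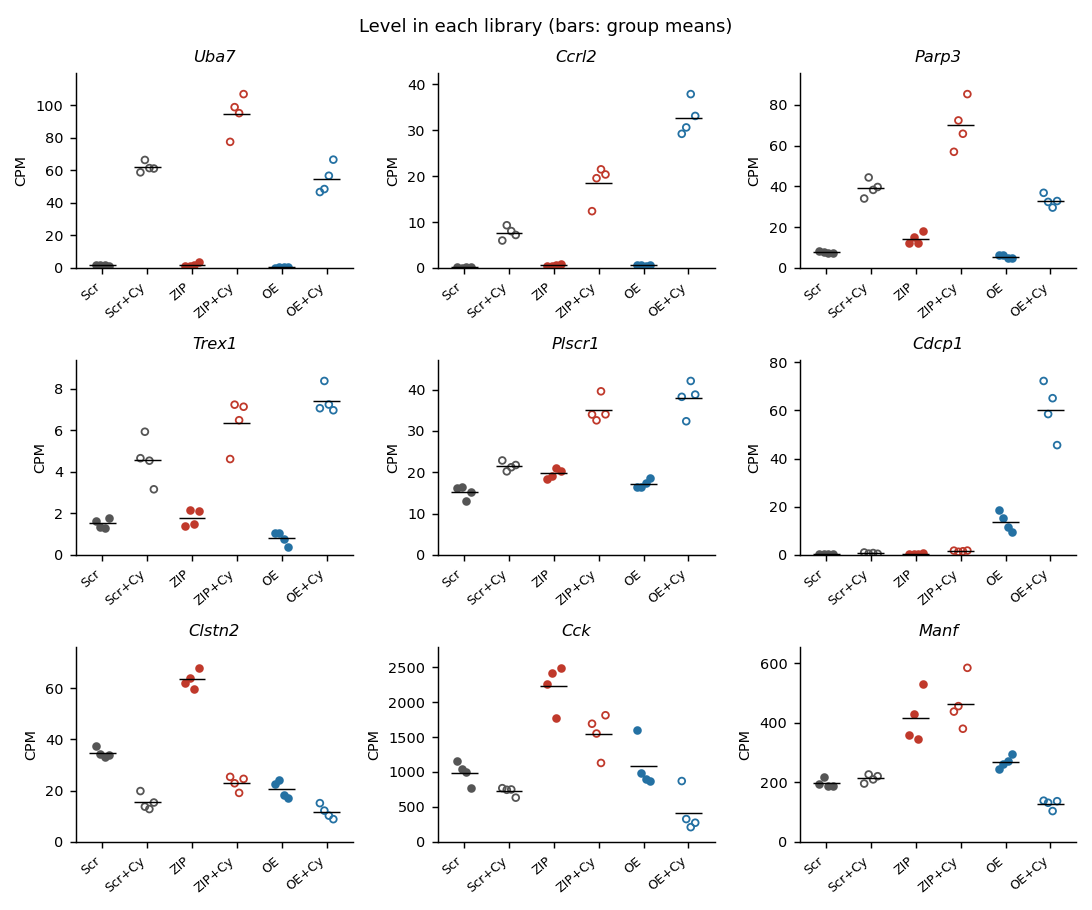
CPM of each library for 9 members that answered the cytokines in at least 1 line, on linear axes from 0, by line, with filled points for untreated and open points for treated libraries and bars at the means of 4. Uba7, Ccrl2, Parp3 and Trex1 are higher with cytokines in every line, Clstn2 is lower in every line, and Manf is lower in OE alone, from 244 to 295 CPM to 103 to 138 CPM.

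Further members of the immune list followed. Trex1, an exonuclease that clears cytosolic DNA, had means of 1.52, 1.79 and 0.821 CPM in Scr, ZIP and OE and of 4.56, 6.36 and 7.40 CPM with cytokines. Its response was larger in OE than in Scr by 1.57 on the log2 scale (adjusted p = 0.00117), although its reads are shared with the overlapping Atrip-trex1 and its own count is uncertain. Plscr1, an interferon-induced scramblase with the GAS shown above, rose from 13.1 to 16.5 CPM to 20.2 to 22.8 CPM in Scr and from 16.3 to 18.6 CPM to 32.3 to 42.1 CPM in OE. Its log2 fold change was 0.49 in Scr, under the 1.5-fold limit, 0.83 in ZIP (adjusted p = 2.85e-08) and 1.14 in OE (adjusted p = 4.88e-11), with an OE interaction of 0.65 (adjusted p = 0.000367). Ltf, the gene of lactoferrin, had no read in OE. Its OE+Cy libraries had 1.88, 1.93, 3.69 and 2.49 CPM, a rise of at least 28.3-fold. In ZIP+Cy, a single library had 3.30 CPM of Ltf and the others 0.0349 to 0.161 CPM, so its call there rested on replicate 3.

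Of the 30 members on the immune and cytokine-linked list, cytokines raised 7 in Scr, 10 in ZIP and 11 in OE and lowered none. Over all genes, 7.88%, 7.28% and 13% were called higher and 2.67%, 5.21% and 8.02% lower. The median log2 fold change of listed members of at least 10 CPM was 0.35, 0.59 and 0.60. Over all genes of that level it was −0.01, −0.01 and −0.03. The list was drawn up with earlier results of these data known. Between lines, 12 of its members were higher and 0 lower in ZIP+Cy over Scr+Cy. Of all 391 members, 59.6% were called higher and 4.35% lower there, and of all genes 7.1% and 8.67%. In OE+Cy over Scr+Cy, 14 listed members were higher and 4 lower. Of all members, 18.2% and 12.3% were called there, and of all genes 13.7% and 14.8%. Untreated, 10 listed members were higher and 0 lower in ZIP, where 7.97% and 6.91% of all genes were called. That contrast chose the region, so nothing is read from these 2 counts. In untreated OE, 10 listed members were higher and 5 lower, where 11.3% and 14.4% of all genes were called. The lower ones in OE were Il20rb, Nt5e, Ppm1m, Trex1 and Uba7. An interaction for OE was found for Plscr1, Trex1 and Uba7.

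Cgas, named after its values were seen, stood out by its combination of both measures. It had 11.5 to 14.2 CPM in Scr and 10.1 to 14.3 CPM in ZIP, so that the common shift was missing without cytokines. With cytokines it had 18.5 to 22.1 CPM in Scr+Cy, 24.0 to 25.3 CPM in ZIP+Cy, while the OE+Cy libraries had 15.9 to 17.4 CPM, with no overlap between lines. The cytokine response was 0.68 in Scr (adjusted p = 2.71e-06), 1.01 in ZIP (adjusted p = 3.53e-09) and 0.52 in OE (adjusted p = 3.53e-05) on the log2 scale, and the ZIP interaction of 0.33 ± 0.12 (SE) did not pass the test (adjusted p = 0.642).

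The departing members answered the cytokines in different ways. Dzip1l rose in all 3 lines, by 1.13 in Scr (adjusted p = 2.47e-09), 1.32 in ZIP (adjusted p = 3e-10) and 1.5 in OE (adjusted p = 4.79e-12) on the log2 scale, and reached 29.2 to 32.4 CPM in OE+Cy. Plscr4 rose in Scr by 0.74 ± 0.21 (SE, adjusted p = 0.0159) and in OE by 0.65 (adjusted p = 0.0195), and its log2 fold change in ZIP was 0.50 (adjusted p = 0.115). Tmod2 and Entpd3 fell in OE by 0.64 (adjusted p = 0.00903) and 0.61 (adjusted p = 0.00239) and were not called in Scr or ZIP. For Tmod2 the interaction of −0.40 did not pass the test (adjusted p = 0.354). For Entpd3 the OE response differed from that of Scr by −1.01 (adjusted p = 0.00463). The call of Entpd3 in OE+Cy over OE was lost without OE replicate 1, OE+Cy replicate 3 or OE+Cy replicate 4. Trf had log2 fold changes of 0.09 in Scr and −0.31 in ZIP (adjusted p = 0.827 and 0.22).

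Among the falls, Clstn2, a calsyntenin of synaptic membranes, went from 33.1 to 37.6 CPM to 12.8 to 19.8 CPM in Scr, from 59.6 to 68 CPM to 19.1 to 25.4 CPM in ZIP and from 17.0 to 24.2 CPM to 8.81 to 15.1 CPM in OE. It fell by 1.17, 1.46 and 0.83 on the log2 scale (adjusted p = 6.84e-07, 1.09e-08 and 4.4e-05). It overlaps 4921534H16Rik, so its count is uncertain. Cacna2d2, a subunit of voltage-gated calcium channels, had means of 2.42, 1.43 and 0.626 CPM and of 1.24, 0.528 and 0.336 CPM with cytokines, and fell by 0.97, 1.42 and 0.89 (adjusted p = 0.00648, 0.00029 and 0.0158). It was also lower in ZIP+Cy than in Scr+Cy, by 1.22 on the log2 scale (adjusted p = 0.00126), against the direction of the common shift. Cmtm8, which lowers EGF receptor signalling, fell by 0.71 in Scr (adjusted p = 0.026) and by 0.98 in ZIP (adjusted p = 0.00363). Higd1a fell by 1.44 in ZIP (adjusted p = 0.0124) and was called lower in Scr too, by the unadjusted limit. Its untreated ZIP replicate 3 had 2.42 CPM, beside 1.28 to 1.38 CPM in the other ZIP libraries.

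In OE, 21 members were called lower with cytokines that were not called lower in Scr or ZIP, which is 5.37% of the members, near the 5.62% of all genes with that pattern. Of the 21, 6 are on the list of secretory genes, as are 29 of all 391 members. That list was drawn up with earlier results of these data known, so nothing is read from the overlap. The interaction, given beside each gene below, tests whether the responses differed. Manf, a chaperone of the endoplasmic reticulum that is induced by unfolded protein, had 188 to 218 CPM in Scr and 196 to 226 CPM in Scr+Cy. In ZIP it had 346 to 530 CPM and 380 to 585 CPM, and in OE 244, 261, 271 and 295 CPM and 138, 131, 103 and 136 CPM. Only in OE did the treated libraries lie below the untreated ones. The log2 fold change in OE was −1.07 (adjusted p = 1.71e-07), and the difference of the OE response from the Scr response was −1.19 ± 0.18 (SE, adjusted p = 5.55e-05). Srprb, the membrane subunit of the signal recognition particle receptor, went from 92.0 to 112 CPM to 50.3 to 62.7 CPM in OE, with an interaction of −0.81 (adjusted p = 0.000307). Copb2, a subunit of the COPI vesicle coat, had means of 325 ± 9.6 and 212 ± 19 CPM in OE and OE+Cy, with an interaction of −0.56 (adjusted p = 0.00148). The call of Copb2 in OE+Cy over OE was lost without OE+Cy replicate 3, its fold change of 1.53 being close to the limit.

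Cck, the gene of cholecystokinin, a peptide hormone of gut and brain that islets can also make, had 1162, 1038, 1001 and 766 CPM in Scr and 631 to 767 CPM in Scr+Cy. In OE it had 1601, 985, 895 and 874 CPM and in OE+Cy 869, 325, 209 and 272 CPM. Replicate 1 was the highest library in both OE groups. The log2 fold change in OE was −1.38 ± 0.30 (SE, adjusted p = 0.000474), beside −0.46 in Scr (adjusted p = 0.322) and −0.53 in ZIP (adjusted p = 0.193), and the interaction of −0.92 did not pass the test (adjusted p = 0.124). Scg3 had means of 2115 CPM in OE and 1356 CPM in OE+Cy, a log2 fold change of −0.64 (adjusted p = 1.56e-05). The OE and Scr responses of Scg3 differed by −0.35 (adjusted p = 0.0967).

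On the secretory pathway and neuroendocrine list of 29 members, 8 fell in OE+Cy over OE and none rose. Over all genes, 8.02% were called lower and 13% higher there. In ZIP+Cy over ZIP, 2 fell and none rose, where 5.21% and 7.28% of all genes were called. In Scr+Cy over Scr, 2 fell and 1 rose, where 2.67% and 7.88% of all genes were called. The secretory list, too, was drawn up with earlier results of these data known. The falls in Scr and ZIP were Cacna2d2 and Clstn2, and OE added Cck, Copb2, Entpd3, Manf, Scg3 and Srprb. The median log2 fold changes of listed members of at least 10 CPM were −0.16 in Scr, −0.19 in ZIP and −0.30 in OE. Over all genes of that level they were −0.01, −0.01 and −0.03. The OE interaction was negative for Copb2, Entpd3, Manf, Srprb and Stt3b and positive for Bsn, Gnai2 and Myo6. Between lines, 17 listed members were higher and 1 lower in ZIP+Cy over Scr+Cy. Of all 391 members, 59.6% were called higher and 4.35% lower there, and of all genes 7.1% and 8.67%. In OE+Cy over Scr+Cy, 5 listed members were higher and 4 lower. Of all members, 18.2% and 12.3% were called there, and of all genes 13.7% and 14.8%. Untreated, the counts were 20 and 1 in ZIP, where 7.97% and 6.91% of all genes were called. That contrast chose the region, so nothing is read from its counts. In untreated OE, 8 listed members were higher and 3 lower, where 11.3% and 14.4% of all genes were called.

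The other lists of textbook roles moved with the common shift in ZIP and little with cytokines. Called higher in ZIP+Cy over Scr+Cy were 59.6% of all members and 7.1% of all genes, and lower 4.35% and 8.67%. In OE+Cy over Scr+Cy, 18.2% of members and 13.7% of genes were higher, and 12.3% and 14.8% lower. With cytokines, 7.88%, 7.28% and 13% of all genes rose and 2.67%, 5.21% and 8.02% fell in Scr, ZIP and OE. These shares stand beside each of the lists that follow. Of 33 metabolic and redox enzymes, 24 were higher and 1, Higd1a, lower in ZIP+Cy over Scr+Cy, and 3 were higher and 5 lower in OE+Cy over Scr+Cy. With cytokines, 0, 2 and 2 of them rose and 1, 1 and 4 fell in Scr, ZIP and OE, and the rises in ZIP and OE were Alas1 and Me1. Alas1, the first enzyme of heme synthesis, had 23.6 to 29.3 CPM in Scr+Cy, 58.7 to 72.9 CPM in ZIP+Cy, while the OE+Cy libraries had 33.7 to 37.6 CPM, with no overlap between lines. It was chosen after its values were seen, as the member with the lowest adjusted p value for a ZIP interaction. The OE interaction of Alas1 was 0.56 (adjusted p = 0.00424) and its ZIP interaction was 0.59 ± 0.13 (SE, adjusted p = 0.144). With the replicate number as a block, which paired these libraries, the ZIP interaction of Alas1 was 0.59 (adjusted p = 0.017), and with DESeq2 it was 0.59 (adjusted p = 0.0158). Over the other alternatives its adjusted p ranged from 0.0582 to 0.346.

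Of 25 cell cycle, DNA repair and chromatin genes, 20 were higher and none lower in ZIP+Cy over Scr+Cy, and 5 were higher and 2 lower in OE+Cy over Scr+Cy. The 5 were Hmgn3, Leo1, Limd1, Phip and Senp6. With cytokines, none of the 25 was called in Scr or ZIP, and Ttk, the mitotic checkpoint kinase, was lower in OE. Of 16 RNA and translation genes, 13 were higher and none lower in ZIP+Cy over Scr+Cy, 1 (Eef1a1) was higher in OE+Cy over Scr+Cy, and with cytokines 1 (Rrp9, in OE) was called in any line. Of 21 signalling receptors, ligands and adhesion genes, 9 were higher and 4 lower in ZIP+Cy over Scr+Cy, and 3 were higher and 7 lower in OE+Cy over Scr+Cy. Their 4 lower genes in ZIP+Cy were Cspg5, Htr1b, Pth1r and Susd5. With cytokines, 3 of them rose and none fell in Scr, 2 rose and 3 fell in ZIP, and 3 rose and 1 fell in OE.

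The cytokine responses of ZIP and Scr were then compared member by member. At an adjusted p value under 0.05 by edgeR's quasi-likelihood test, 0 of 391 members differed, where 0.0565% of all genes did. At an unadjusted p value under 0.05, 20 members differed, and DESeq2 called 1 member after adjustment, Alas1, as did the fit with the replicate block. The lowest adjusted p value by edgeR was 0.144. The median difference of the responses was −0.01 on the log2 scale, with an interquartile range between −0.07 and 0.07.

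**Figure D5:**
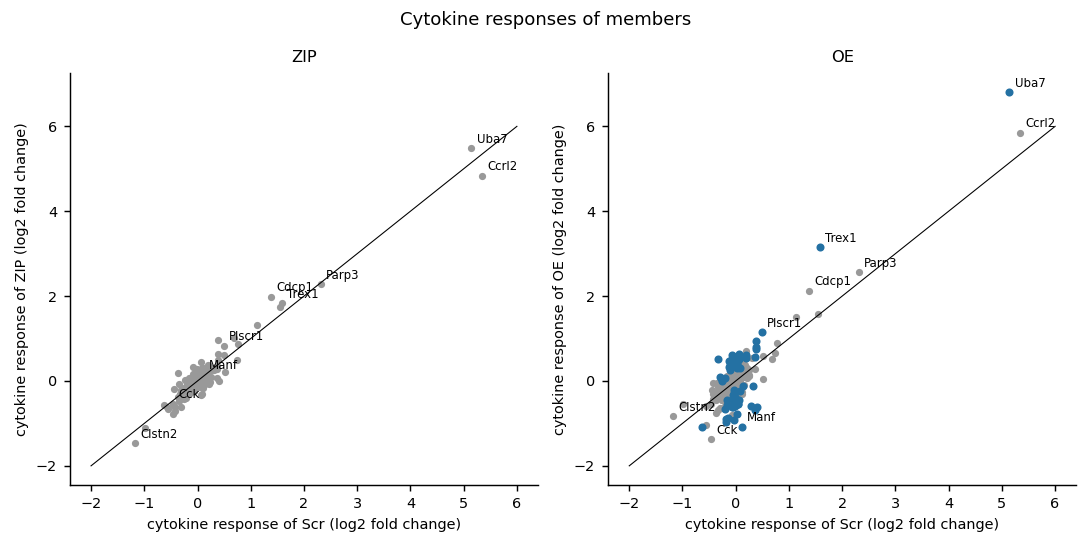
Log2 cytokine response of each member of at least 10 CPM in ZIP (left) and OE (right) against its response in Scr, with the line of equal response and members with an OE interaction in blue. The ZIP points lie close to the line, with 0 members called, and the OE points scatter around it, with 69 called.

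For OE, the response differed from that of Scr in 69 members, 38 with a higher and 31 with a lower response, where 9.64% and 10.3% of all genes were called. The shares of members were near that background. Fbxl2, a subunit of ubiquitin ligases, had the lowest adjusted p value. It had 13.3 to 14.8 CPM in Scr and 10.8 to 11.8 CPM in Scr+Cy, and 3.81 to 4.64 CPM in OE and 5.73 to 7.07 CPM in OE+Cy. The gene went down in Scr and up in OE, with no overlap of treated and untreated libraries in either, an interaction of 0.86 ± 0.11 (SE, adjusted p = 1.26e-05). It overlaps Ubp1, so its count is uncertain. Cdc25a, a phosphatase that activates cyclin-dependent kinases, had 45.5 to 48.0 CPM in Scr and 47.6 to 49.7 CPM in Scr+Cy, and went from 54.9 to 56.4 CPM to 33.7 to 41.2 CPM in OE. Its interaction was −0.59 (adjusted p = 2.76e-05). Map4, a microtubule-binding protein, went from 83.3 to 103 CPM to 122 to 145 CPM in OE, with an interaction of 0.57 (adjusted p = 0.000188), and Ibtk, an inhibitor of the kinase BTK, had an interaction of −0.44 (adjusted p = 0.000197).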

How the data were processed

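RNA-seq values of 24 MIN6 libraries, 4 in each of 6 groups, were used as the authors deposited them. According to the submitters' processing notes, reads were checked with FastQC and aligned to mm10 with STAR 2.7.8a in Partek 11.0.24.0204, and DESeq2 was used. The authors deposited estimated counts per gene, of which 30.1% were not whole, and a size-factor-normalized signal per gene, which was not used here. The use of strand in counting is not given in the sources used here. Every listed gene had at least 10 reads in total. Depth was 26657792 to 37168232 assigned reads per library (median 30701023), and detection limits of 3 reads cover counting error only. The authors' file gave gene positions.

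Estimated counts were rounded, and 1 model of 6 group means was fitted to all 17696 genes in edgeR 4.0.16 (R 4.3.3, limma 3.58.1) with TMM scaling and the quasi-likelihood test. The p values were adjusted over all genes by the Benjamini-Hochberg method. A call needed a 1.5-fold difference or more and p under 0.05 before adjustment, and an interaction needed an adjusted p under 0.05. The SE was derived from the log2 fold change and its F statistic (the size over the root of F). Levels are CPM after TMM scaling, as mean ± SD of 4. Where every library of a group had at most 3 reads, folds are lower bounds. The scripts were tested on simulated data.

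The members and the 6 gene lists were chosen with earlier results of these data known. The genes named are the departing members and those next to the limit, in each cytokine comparison the 6 largest rises and 4 largest falls, in OE over Scr and OE+Cy over Scr+Cy the 5 largest of each, the 6 lowest adjusted p values of an interaction, listed immune and secretory members of at least 10 CPM, and the 3 genes on each side of the start. Rises and falls had to pass an adjusted p of 0.05 and show a mean of 1 CPM in 1 of the groups and separate library ranges. Other names were chosen after their values were seen, and not every gene that met the rule is reported here.

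Replicate numbers are shared between groups in the labels, which do not explain them. Over 12670 genes, same-numbered libraries deviated together (every correlation over 0.1) in Scr+Cy with Scr (0.413 to 0.626), ZIP+Cy with ZIP (0.261 to 0.397), OE+Cy with OE (0.162 to 0.455), ZIP with Scr (0.141 to 0.634) and ZIP+Cy with Scr+Cy (0.191 to 0.370), but not in OE with Scr or OE+Cy with Scr+Cy. The alternatives were DESeq2 1.42.0, its size factors in edgeR, TMM factors without chromosome 9, the filterByExpr filter, a fit of the compared groups alone, the replicate block, adjusted p values, other minimum levels and limits, and leaving out each library.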

Additional observations from a re-analysis of the deposited data

Results flagged for a closer look

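In the groups of 4, a library was marked when its gap to the nearest other library exceeded the 95% critical value of Dixon's test. Of 334 tests on the named genes, 21 marked a library, where chance gives about 1 in 20. A low library was marked for B430319G15Rik in OE+Cy replicate 4 (1.03 CPM), Cck in Scr+Cy replicate 4 (631 CPM), Cdc25a in Scr replicate 3 (45.5 CPM) and OE replicate 1 (54.9 CPM), and Cmtm8 in ZIP replicate 1 (0.768 CPM) and OE replicate 1 (1.33 CPM). Low libraries were also Copb2 in ZIP+Cy replicate 3 (382 CPM), Gnai2 in OE+Cy replicate 1 (163 CPM), Golga4 in OE+Cy replicate 4 (140.5 CPM), Rab6b in OE+Cy replicate 1 (9.31 CPM), Rasgrf1 in ZIP+Cy replicate 3 (67.6 CPM), Srprb in OE+Cy replicate 3 (50.3 CPM) and Tmem108 in OE+Cy replicate 3 (38.1 CPM). A high library was marked for Cck in OE replicate 1 (1601 CPM), Gnai2 in ZIP+Cy replicate 4 (233 CPM), Higd1a in ZIP replicate 3 (2.42 CPM), Map4 in ZIP+Cy replicate 3 (272 CPM), Sh3bgrl2 in Scr+Cy replicate 1 (4.03 CPM), Stt3b in ZIP replicate 4 (285 CPM), Tbc1d2b in ZIP+Cy replicate 3 (14.6 CPM) and Vipr1 in ZIP+Cy replicate 1 (64.8 CPM). Among them ZIP+Cy replicate 3 was marked 4 times, OE replicate 1 was marked 3 times, and OE+Cy replicates 1, 3 and 4 were each marked 2 times.

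By the interaction test, the cytokine response of OE differed from that of Scr for 24 of the genes named, of which Alas1, Kif15, Me1, Rrp9 and Ttk were named outside the rule. The OE response lay above the Scr response for Alas1 (0.56 on the log2 scale), Bsn (0.48), Fam214a (0.46), Fbxl2 (0.86), Gm26797 (1.85), Gnai2 (0.27), Map4 (0.57), Me1 (0.43), Myo6 (0.40), Plscr1 (0.65), Rrp9 (0.57), Tpbg (1.60), Trex1 (1.57) and Uba7 (1.67). It lay below the Scr response for Cdc25a (−0.59), Copb2 (−0.56), Entpd3 (−1.01), Ibtk (−0.44), Kif15 (−0.48), Manf (−1.19), Srprb (−0.81), Ss18l2 (−0.45), Stt3b (−0.38) and Ttk (−0.47).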

How the results depend on the processing

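No called value of a named gene changed sign under any alternative. The medians near 0 did: that of OE+Cy over Scr+Cy ranged from −0.013 to 0.048 with 1 library left out, and that of OE over Scr, 0.01, was −0.0072 at a minimum of 1 CPM. Members with a ZIP interaction went from 0 to 1, Alas1, with DESeq2 and to 1, the same gene, with the replicate block, and 7 departing members became 4 at a minimum of 10 CPM. With the replicate number as a block, 234 members were called in ZIP over Scr, 253 in ZIP+Cy over Scr+Cy, 121 in OE over Scr and 119 in OE+Cy over Scr+Cy, and 37, 54 and 72 with cytokines in Scr, ZIP and OE. The block gave 91 OE interactions beside 69 without it. Apart from the ZIP interactions, which went from 0 to 1, the pairing changed no count by more than 1.5 times. Because ZIP over Scr chose the region, the steadiness of that contrast's calls and common shift is a description and lends them no support. Leaving out each library gave 224 to 249 calls in ZIP over Scr, 241 to 254 in ZIP+Cy over Scr+Cy, 114 to 123 in OE over Scr, 115 to 131 in OE+Cy over Scr+Cy, 49 to 77 OE interactions, 0 ZIP interactions throughout and 6 to 7 departing members. Calls with cytokines were then 32 to 41 in Scr, 44 to 54 in ZIP and 58 to 78 in OE. The common shift ranged from 0.75 to 0.79 in ZIP over Scr, from 0.75 to 0.81 in ZIP+Cy over Scr+Cy and from 0.0046 to 0.025 in OE over Scr. With cytokines it ranged from −0.053 to −0.00049 in Scr, from −0.036 to −0.0093 in ZIP and from −0.056 to −0.011 in OE, where it lay at −0.047 and −0.056 without OE+Cy replicates 3 and 4. The cause of these changes was not tested, other than that a minimum of 10 CPM removes low genes. Among named genes, 6 calls were lost with 1 library left out, for Entpd3 (3 times), Ss18l2, Amotl2 and Copb2. Low counts limit Higd1a, Trf, Tmie, Als2cl, Ltf and Slco2a1 to lower bounds in 1 or more groups, and genes that overlap another counted gene keep an uncertain share of reads.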
